A study of Mus musculus with 6 samples.

Results

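The p53 pathway and its downstream apoptosis genes were described in mouse primary hippocampal cells after knockdown of Diras2, which encodes a small GTPase of the Ras family found in brain. The list names 46 genes: p53 (Trp53), its brakes, genes that p53 is known to switch on, and the machinery of programmed cell death. Members were the genes with a probe set annotated with exactly 1 gene symbol, and the probe set brightest over all arrays stood for the gene. This gave 42 members of 22180 genes tested. Trp53, Bax, Gadd45a and Bnip3l could not be taken by this rule and were not analysed here.

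The cells were dissected from hippocampi of mouse embryos on day 18 of gestation, cultured, infected with the adeno-associated virus AAV1/2 7 days after seeding, and collected for RNA 7 days after infection. In 3 samples the treatment was a Diras2 knockdown and in the 3 control samples a scrambled sequence; both groups carried virus, and no uninfected group or other knockdown construct was used here. Each sample was read on 1 Affymetrix array and given as log2 RMA levels, a scale on which a difference of 1 is a factor of 2. The samples are called biological replicates and their labels mention neither cultures nor litters, so the p-values rest on a spread between samples that may be partly technical.

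p53 is a transcription factor that DNA damage and other stresses stabilise. Mdm2 and its relative Mdm4 hold it in check, and Mdm2 is itself a p53 target, which closes a feedback loop. Its targets stop the cell cycle (Cdkn1a), adjust metabolism and autophagy (the sestrins), or start apoptosis through BH3-only proteins such as Bbc3 and Pmaip1, which overcome Bcl2 and its relatives at the mitochondrion and lead to caspase activation on the Apaf1 scaffold. In young neurons BH3-only proteins such as Bcl2l11 and Hrk are known for the death that follows loss of trophic support.

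The targeted gene was lower in every knockdown array. Diras2 levels were 7.17, 6.23 and 6.08 in knockdown replicates 1 to 3 and 10.17, 10.17 and 9.76 in the controls, with knockdown minus control at -3.54 on the log2 scale (SE 0.27, adjusted p 0.00063 by limma). An exact two-sided permutation test of Diras2 alone gave p = 0.1, the smallest that 3 against 3 arrays allow. Array medians lay between 4.03 and 4.11, and the RNA integrity number was 9, 9.3 and 9.2 for knockdown replicates 1 to 3 and 9.2, 9 and 8.8 for the controls. Precision is limited by the number of arrays. Neuronal content was described by 9 pan-neuronal genes, Map2 and Snap25 among them, which cannot tell hippocampus from other brain regions. The log2 of their summed levels was 14.79, 14.73 and 14.54 in knockdown replicates 1 to 3 and 14.98, 14.84 and 14.65 in the controls. The groups overlapped, while each knockdown sample lay below the control with the same replicate number. The single genes were mixed: 4 had a positive and 5 a negative difference, with a median of -0.02 on the log2 scale. Snap25, the brightest of the 9 in every control and so the one weighing most in those sums, had -0.51.

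Among the 42 members there were 3 that rose, 5 that fell and 34 that did not pass, at an adjusted p under 0.05 by limma with Benjamini-Hochberg adjustment over all genes. The share called was 19.0% of members against 7.8% of all genes tested (4.17% higher and 3.64% lower). Most members are well expressed, 40 of 42 having a mean level above the median of all genes, and among genes above that median 14.6% were called, against 7 of 40 members or 17.5%. The median log2 difference of the members was 0.05, against 0.00 for all genes, and their median absolute difference was 0.24 against 0.14. Trp53inp1, Ccng1 and Aen rose, and all 3 are known p53 targets. Dap, Dffa, Trp53inp2, Mdm4 and Bcl2l11 fell. The groups did not overlap for 15 members, 35.7%, against 25.5% of all genes. That share was not computed for genes above the median level alone.

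**Figure D1:**
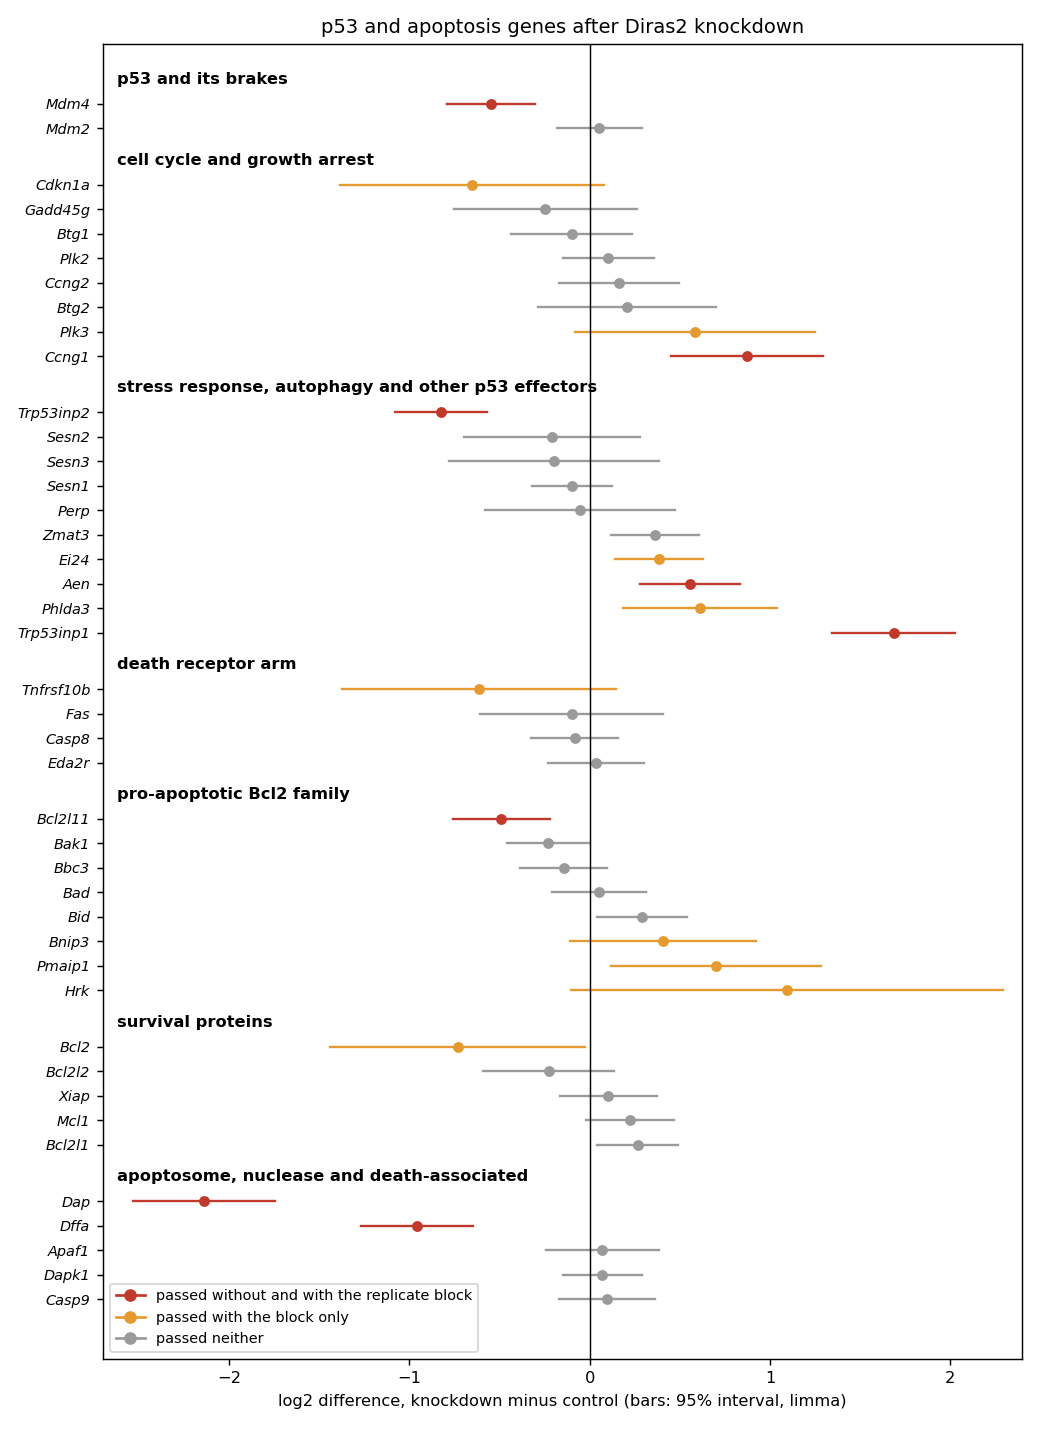
Log2 difference, knockdown minus control, of each of the 42 members, grouped by role; bars are 95% intervals from limma. The 8 members that passed the test are in red, the 9 that passed only with the replicate number as a block in orange and the other 25 in grey; Dap lies furthest to the left at -2.14 and Trp53inp1 furthest to the right at 1.69.

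Samples with the same replicate number deviated together from their group means for numbers 1 and 3 (correlations of 0.427 and 0.374). For number 2 this was weak (0.121, against up to 0.0568 for different numbers). A second fit with the replicate number as a block is therefore given beside the results it changes. With this block 9 members rose and 8 fell, 40.5% of the members against 11.7% of all genes (6.05% higher and 5.64% lower), and against 21.2% of the genes above the median level. Of the 40 members above that level 16 were called. The 8 members called without the block were all called with it. The 3 differences between same-numbered samples had one sign for 30 members, 71.4%, against 44.9% of all genes. The one-sign share was not computed for genes above the median level alone, where most members lie. The block comes from the replicate numbers and the correlation of these same arrays, since the labels do not say what a number marks.

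Promoter sequences are shown first for members that hold a match to the p53 consensus next to their start, because they went in different directions. The p53 consensus decamer, the element of 10 bases that p53 binds as an adjoining pair, was searched in the 250 bases before each RefSeq start (build GRCm38.p6). The consensus is its own reverse complement, so the search covers both strands. Sites outside these 250 bases were not searched. RefSeq promoters were matched for 37 of the 42 measured members, and 6 of them held an exact decamer, 16.2%, against 8.2% of 27025 genes in the promoter table. A complete pair of adjoining decamers with at most 1 mismatch in 20 bases stood before Ccng1 and Cdkn1a, and before 19 genes, 0.0703%, in the whole table. In the stretches below the capitals mark the pair of decamers, and in Aen and Mdm2 a single exact decamer. The Cdkn1a stretch also holds a separate exact decamer, 73 to 64 bases before the start, which is left in lower case. The Ccng1 stretch is chr11:40755422-40755521 on the minus strand, that of Cdkn1a chr17:29090888-29090978 on the plus strand, that of Aen chr7:78895927-78895956 on the plus strand, and that of Mdm2 chr10:117710925-117710954 on the minus strand.
Ccng1: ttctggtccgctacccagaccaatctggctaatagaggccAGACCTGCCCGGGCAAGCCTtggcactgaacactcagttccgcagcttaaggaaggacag
Cdkn1a: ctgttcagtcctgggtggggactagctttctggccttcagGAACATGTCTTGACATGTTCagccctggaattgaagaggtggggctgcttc
Aen: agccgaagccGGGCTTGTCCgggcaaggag
Mdm2: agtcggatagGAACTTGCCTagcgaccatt

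The members with an exact decamer or a pair, Aen, Ccng1, Cdkn1a, Ei24, Mdm2 and Sesn1, are all among the reported p53 targets, of which 15 were matched. None of the 22 matched members outside that group held one. The log2 differences of these 6 genes were 0.56 for Aen, 0.87 for Ccng1, -0.65 for Cdkn1a, 0.38 for Ei24, 0.05 for Mdm2 and -0.10 for Sesn1. Ccng1 and Cdkn1a, both with a complete pair, thus had differences of opposite sign. A match is a description of the letters and not a measured binding site.

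Among the brakes of p53, Mdm4 fell and Mdm2 did not pass the test. Mdm4, which binds the activation domain of p53 and blocks it, had levels of 7.26, 7.20 and 7.18 in knockdown replicates 1 to 3 and 7.70, 7.66 and 7.92 in the controls. All 3 knockdown arrays lay below all controls, and knockdown minus control was -0.55 on the log2 scale (SE 0.11, adjusted p 0.0189 by limma). Leaving out control replicate 2 (0.0540) or knockdown replicates 2 (0.0785) or 3 (0.0756) ended the call, as did a term for RNA integrity (0.0934). Mdm2, the ubiquitin ligase that sends p53 to the proteasome, had levels of 8.57, 8.54 and 8.66 against 8.48, 8.46 and 8.67. The groups overlapped, and the log2 difference of 0.05 had a 95% interval of -0.18 to 0.29.

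Of 8 measured genes that arrest the cell cycle or growth, Ccng1 rose, 0 fell and 7 did not pass. Their median log2 difference was 0.13. All 8 lay above the median level of all genes. The shares called were 12.5% without and 37.5% with the replicate block, against 14.6% and 21.2% of all genes at such levels. Ccng1, cyclin G1, a p53 target that recruits a phosphatase to Mdm2, had levels of 10.76, 10.71 and 11.03 in the knockdown and 9.73, 9.78 and 10.37 in the control. The groups did not overlap, though control replicate 3 stood well above the other 2 controls. Ccng1 was 1.83-fold higher in the knockdown, 0.87 on the log2 scale (SE 0.18, adjusted p 0.0260 by limma). That call held when control replicate 3 was left out and was lost when any other array was: the adjusted p was 0.0613 and 0.112 on leaving out control replicates 1 and 2, and 0.0568, 0.0738 and 0.0987 on leaving out knockdown replicates 1, 2 and 3. With the replicate block the adjusted p was 0.00522.

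Cdkn1a, the p21 inhibitor of cyclin-dependent kinases and the textbook p53 target, had levels of 9.80, 10.50 and 10.77 in the knockdown and 10.40, 11.12 and 11.51 in the control. The groups overlapped, with number 1 lowest in both, and the log2 difference of -0.65 had an adjusted p of 0.296 by limma. Same-numbered samples differed by -0.60, -0.62 and -0.74, and with the replicate block Cdkn1a fell (SE 0.09, adjusted p 0.00795 by limma). Without the block the size rested on single arrays: the difference was -0.38 without knockdown replicate 1 and -0.40 without control replicate 3. Plk3, a stress-activated polo-like kinase, had levels of 7.55, 8.27 and 8.25 against 6.83, 7.61 and 7.88. It again had number 1 lowest in both groups, and the pairs differed by 0.72, 0.66 and 0.37. Its adjusted p by limma was 0.308 without the block and 0.0191 with it, and the log2 difference of 0.58 was 0.28 without control replicate 1.

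The other arrest genes passed neither fit. Btg2 and Btg1, antiproliferative adaptors of the deadenylase complex, had log2 differences of 0.21 and -0.10. Plk2, a kinase that neuronal activity induces, had 0.10 and Ccng2, a cyclin that FOXO factors induce, 0.16. Gadd45g, a stress sensor that binds MAP kinase kinases, had -0.25, with the controls spread from 6.32 to 7.28. Btg2 and Plk2 were higher in all 3 pairs, while the pair differences of Btg1, Ccng2 and Gadd45g had mixed signs.

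Effectors of stress and autophagy held the member with the largest rise. Of 10 measured, 2 rose, 1 fell and 7 did not pass, with a median log2 difference of 0.16. With the block 4 rose and 1 fell. All 10 lay above the median level of all genes. The shares called were 30% without and 50% with the block, against 14.6% and 21.2% of all genes at such levels. Trp53inp1, a p53-induced nuclear protein that also acts in autophagy, had levels of 9.22, 9.33 and 9.63 in the knockdown and 7.50, 7.71 and 7.91 in the control. The lowest knockdown array lay above the highest control by more than the span of either group. Trp53inp1 was 3.22-fold higher, 1.69 on the log2 scale (SE 0.15), rank 27 among 11160 genes with a positive difference, and the adjusted p by limma was 0.000962.

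Trp53inp2, its relative, which shuttles from the nucleus to the autophagosome, went the other way. Its levels were 7.00, 7.22 and 7.16 in the knockdown and 7.81, 8.02 and 8.02 in the control, without overlap. Trp53inp2 was 1.77-fold lower, -0.82 on the log2 scale (SE 0.11, adjusted p 0.00418 by limma). The 3 pairs differed by -0.81, -0.80 and -0.86. The calls of Trp53inp1 and Trp53inp2 held without each array in turn, with adjusted p-values of up to 0.0103 and 0.0291.

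Aen, an exonuclease that p53 induces during apoptosis, had levels of 7.82, 7.86 and 7.90 against 7.21, 7.17 and 7.53 in the control. The knockdown arrays lay close together above all controls, and knockdown minus control was 0.56 on the log2 scale (SE 0.12, adjusted p 0.0288 by limma). Leaving out control replicates 1 (0.0711) or 2 (0.120) or knockdown replicates 1 (0.0638), 2 (0.0999) or 3 (0.102) ended the call, as did a term for RNA integrity (0.0603).

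Phlda3, a p53 target that competes with the kinase Akt for membrane lipids, had levels of 8.05, 8.37 and 8.81 against 7.72, 7.72 and 7.95. The groups did not overlap, but the knockdown arrays were widely spread, and the adjusted p by limma was 0.0940 without the block and 0.0256 with it at a log2 difference of 0.61. Without knockdown replicate 1 Phlda3 passed without the block too (0.0361). Ei24, a p53-induced protein of the endoplasmic reticulum, had levels of 10.21, 10.29 and 10.41 against 9.92, 9.81 and 10.03. Its log2 difference of 0.38 had an adjusted p of 0.0713 without the block and 0.0494 with it. Zmat3, a p53-induced RNA-binding protein, had a log2 difference of 0.36 without overlap and passed neither fit (0.0849, and 0.0505 with the block).

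The sestrins, which restrain mTORC1 and oxidative stress, had negative differences that passed neither fit. The log2 differences were -0.10 for Sesn1, -0.21 for Sesn2 and -0.20 for Sesn3, with 95% intervals of -0.32 to 0.12, -0.70 to 0.28 and -0.78 to 0.39. Without control replicate 3 the differences of Sesn2 and Sesn3 were 0.003 and 0.06. Perp, a membrane protein that p53 and p63 induce, had -0.05.

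**Figure D2:**
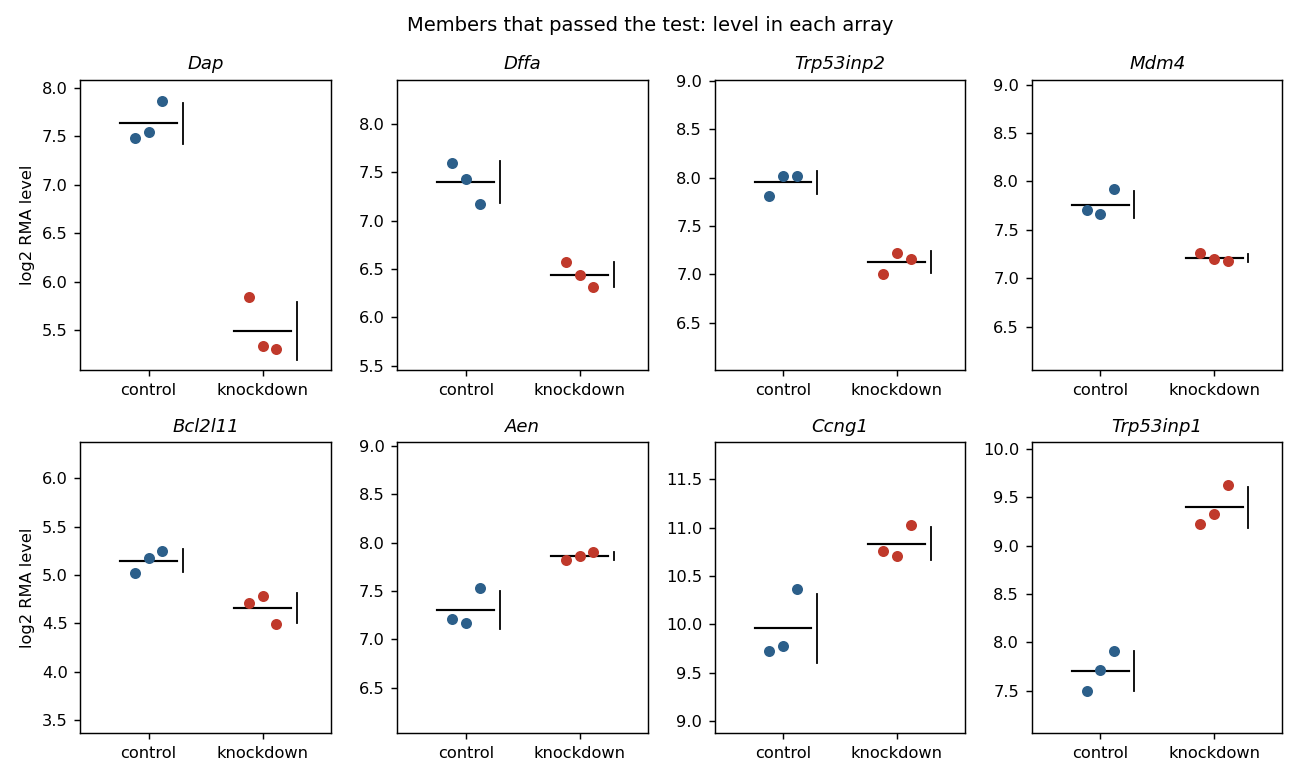
Log2 RMA level in each array of the 8 members that passed the test, with the control in blue and the knockdown in red; horizontal lines are group means, vertical bars 1 SD (n = 3), and every panel spans 3 log2 units. In no panel do the groups overlap, and the gap is widest for Dap and Trp53inp1.

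The death receptor arm held no member that passed the test. Of 4 measured, 0 rose and 0 fell, and the median log2 difference was -0.09. Tnfrsf10b, the mouse receptor for the death ligand TRAIL, had levels of 6.48, 6.59 and 7.37 against 6.74, 7.60 and 7.94. Its log2 difference of -0.61 had an adjusted p of 0.354 by limma, and of 0.0473 with the replicate block. The pairs differed by -0.26, -1.01 and -0.57, all one way but of unequal size. The Tnfrsf10b difference was -0.96 without control replicate 1 and -0.36 without control replicate 3. Fas, another death receptor, had a log2 difference of -0.10, Eda2r, a p53-induced receptor of the same family, 0.03, and Casp8, the caspase that these receptors recruit, -0.08. Casp8 levels ran only from 3.81 to 4.08 over all arrays, and whether that signal lay above background was not tested.

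Pro-apoptotic members of the Bcl2 family went in both directions. Of 8 measured, 0 rose and 1 fell without the block, 12.5% against 7.8% of all genes. With the block 3 rose and 1 fell, 50% against 11.7%. Of the 7 above the median level of all genes 0 were called without the block and 42.9% with it. At such levels 14.6% and 21.2% of all genes were called. The median log2 difference of the 8 was 0.17. The member that fell was Bcl2l11, or Bim, a BH3-only protein of trophic factor withdrawal. It had levels of 4.71, 4.78 and 4.49 in the knockdown and 5.02, 5.18 and 5.25 in the control, without overlap. The mean level of Bcl2l11 lay below the median of all genes, 5.06, so the filter on dim genes left it out. Whether its signal lay above background was not tested. Knockdown minus control was -0.49 on the log2 scale (SE 0.12), and limma gave an adjusted p of 0.0426, or 0.0450 with the block. Leaving out control replicates 2 (0.150) or 3 (0.108) or knockdown replicates 1 (0.0837), 2 (0.0821) or 3 (0.136) ended the call, as did an intensity trend (0.0554) or a term for RNA integrity (0.172).

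Hrk, or harakiri, a BH3-only protein largely of the nervous system, had levels of 7.64, 6.88 and 6.49 in the knockdown and 6.97, 6.03 and 4.73 in the control. Number 1 was highest in both groups and control replicate 3 lay far below the rest. The log2 difference of 1.09 (SE 0.52) had an adjusted p of 0.285 by limma, and without control replicate 3 it was 0.50. The pairs differed by 0.67, 0.85 and 1.76, and with the block Hrk rose with an adjusted p of 0.0204.

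Pmaip1, or Noxa, a p53-induced BH3-only protein that binds Mcl1, had levels of 7.17, 7.26 and 7.75 against 6.28, 6.56 and 7.24. The highest control reached into the knockdown range, and the log2 difference of 0.70 had an adjusted p of 0.154 by limma. With the block it was 0.0105, on pair differences of 0.89, 0.70 and 0.51. Without control replicate 3 Pmaip1 passed without the block too (0.0291). Bnip3, a mitochondrial protein induced by hypoxia that takes part in mitophagy, had levels of 8.85, 8.45 and 8.22 against 8.54, 7.98 and 7.78. Its pairs differed by 0.31, 0.47 and 0.44, and the adjusted p by limma was 0.364 without the block and 0.0402 with it. The Bnip3 difference of 0.41 was 0.63 without control replicate 1, 0.25 without control replicate 3 and 0.24 without knockdown replicate 1.

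Bbc3, or Puma, the BH3-only protein most closely tied to p53, passed neither fit. Its levels were 5.87, 5.81 and 5.98 in the knockdown and 6.09, 5.90 and 6.10 in the control. The log2 difference of -0.14 had a 95% interval of -0.38 to 0.10. Bak1, which forms the pore in the outer mitochondrial membrane, had -0.23 without overlap. Bid, which caspase 8 cleaves, had 0.29 without overlap, and Bad, which growth factor signalling restrains, 0.05; their adjusted p-values by limma were 0.242, 0.167 and 0.865.

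Of 5 survival proteins 0 rose and 0 fell without the block. All 5 had pair differences of one sign, against 44.9% of all genes, dim ones included. The sign was positive for 3 of them and negative for 2. Bcl2, which holds BH3-only proteins and the pore formers in check, had levels of 7.98, 8.19 and 8.66 in the knockdown and 8.30, 9.19 and 9.54 in the control. Number 1 was again lowest in both groups, and the groups overlapped. The log2 difference of -0.73 (SE 0.31) had an adjusted p of 0.221 by limma; the pairs differed by -0.32, -1.0 and -0.88, and with the block Bcl2 fell with an adjusted p of 0.0247. Without control replicate 1 the difference was -1.09 and passed without the block (adjusted p 0.0250), and without control replicate 3 it was -0.47. A second, dim Bcl2 probe set, at 3.09 to 3.34 over all arrays, had a log2 difference of 0.05.

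Mcl1, a short-lived survival protein, had levels of 9.19, 9.12 and 9.14 against 9.06, 8.78 and 8.94. Its log2 difference of 0.22 passed neither fit, and a second, dimmer Mcl1 probe set had -0.30. Bcl2l1, or Bcl-xL, the main survival relative of mature neurons, had levels of 7.15, 7.36 and 7.28 against 7.01, 7.00 and 6.98. These did not overlap, and the difference of 0.27 had an adjusted p of 0.161 by limma. Bcl2l2, or Bcl-w, had -0.23 and Xiap, which blocks caspases directly, 0.10. Bcl2 and Bcl2l2 therefore lay below 0, and Mcl1, Bcl2l1 and Xiap above it.

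**Figure D3:**
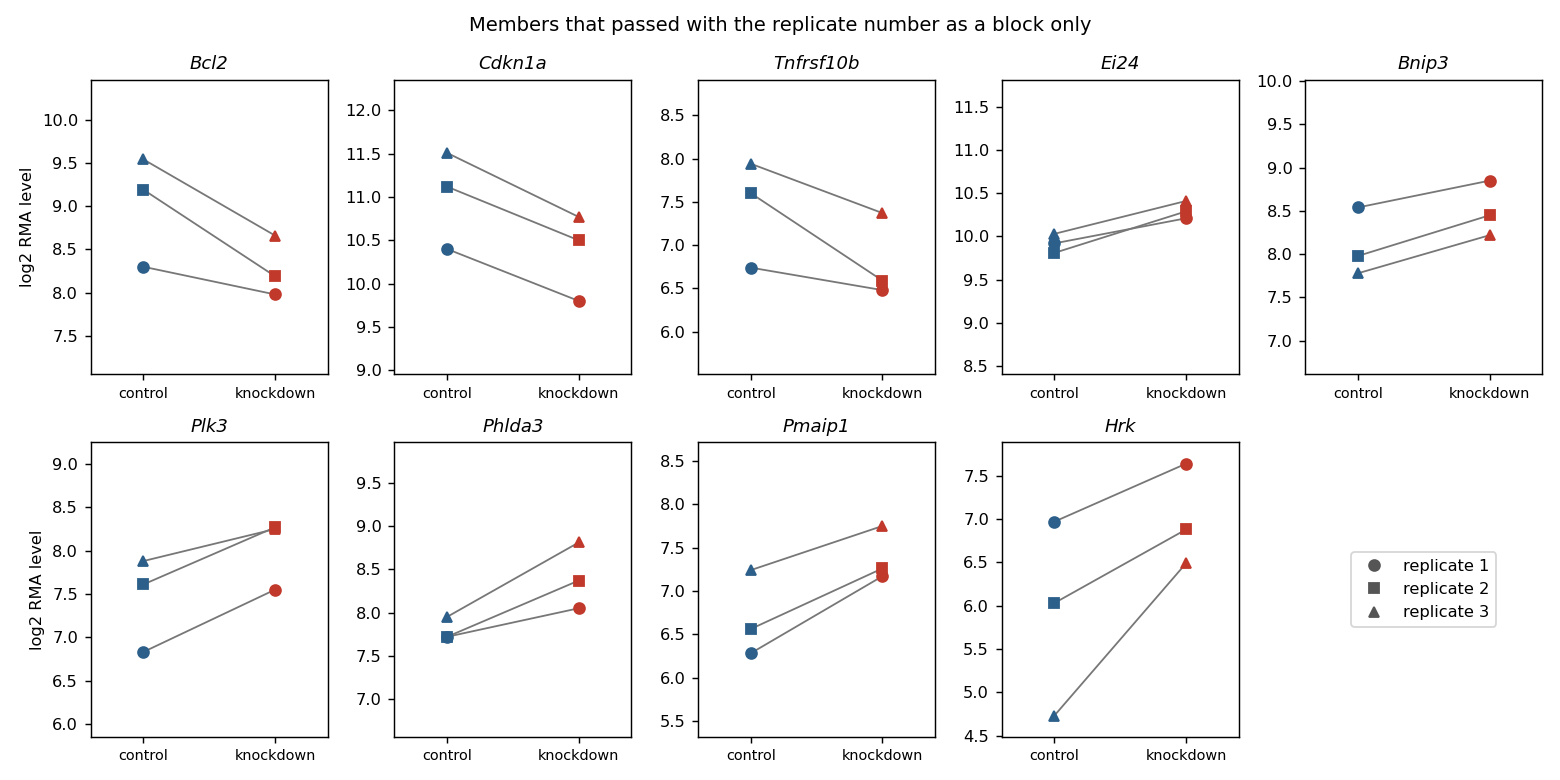
Log2 RMA level in control and knockdown of the 9 members that passed only with the replicate number as a block, with lines joining same-numbered samples and every panel spanning 3.4 log2 units. The groups overlap for 7 of the 9, while all 3 lines of each gene slope the same way, down for Bcl2, Cdkn1a and Tnfrsf10b and up for the other 6.

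The last group, the apoptosome, the nuclease inhibitor and death-associated proteins, held the members that fell most. Dap, a death-associated protein first found through interferon-induced cell death, had levels of 5.84, 5.34 and 5.30 in the knockdown and 7.48, 7.55 and 7.87 in the control. All 3 knockdown arrays lay far below all controls, and the pairs differed by -1.64, -2.21 and -2.57. Dap was 4.41-fold lower, -2.14 on the log2 scale (SE 0.17, adjusted p 0.000698 by limma), rank 7 among 11020 genes with a negative difference.

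Dffa, the chaperone and inhibitor of the nuclease that cuts DNA in apoptosis, had levels of 6.57, 6.44 and 6.31 against 7.60, 7.43 and 7.17. The groups did not overlap, and Dffa was 1.95-fold lower, -0.96 on the log2 scale (SE 0.13, adjusted p 0.00497 by limma). Without each array in turn the calls of Dap and Dffa held, with adjusted p-values of up to 0.00778 and 0.0328. The call of neither depended on the replicate block, under which the adjusted p-values were 0.00174 and 0.00281.

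The core of the apoptosome passed neither fit. Apaf1, the scaffold that cytochrome c activates, had levels of 7.48, 7.31 and 7.53 against 7.62, 7.16 and 7.33, and a log2 difference of 0.07 with a 95% interval of -0.24 to 0.39. Casp9, the caspase that Apaf1 activates, had levels of 5.93, 5.87 and 5.93 against 5.92, 5.60 and 5.92, and a difference of 0.10 with an interval of -0.17 to 0.36. The groups overlapped for both genes. Dapk1, a calmodulin-regulated death kinase unrelated to Dap in sequence, had 0.07.

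The 25 members that passed neither fit had log2 differences from -0.25 to 0.36. Their 95% intervals reached from 0.22 to 0.58 to each side of the estimate. The unadjusted intervals of Zmat3 (0.12 to 0.61), Bid (0.04 to 0.54) and Bcl2l1 (0.04 to 0.49) lay above 0, and these genes did not pass after adjustment over all genes. The other 22 intervals included 0.

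Members reported as p53 targets were then set beside the other members, as counts only. Of 20 measured targets 3 rose, 0 fell and 17 did not pass, with a median log2 difference of 0.09. Of 22 other members 0 rose, 5 fell and 17 did not pass, with a median of -0.09. With the replicate block 7 targets rose and 2, Cdkn1a and Tnfrsf10b, fell, while 2 other members rose and 6 fell. All 20 targets lie above the median level of all genes, where 14.6% of genes were called without the block and 21.2% with it, against 15% and 45% of the targets. Of the 20 other members above that level 20% and 35% were called. The share of targets called without the block was thus close to that of all genes at such levels, and the difference between the target and other members was not tested.

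Other genes of the pathway came from 3 lists of named regulators, targets and apoptosis genes. Of 30 further p53 targets 2 rose, 0 fell and 28 did not pass; 24 had a positive difference and their median was 0.17 on the log2 scale, where 11160 of 22180 genes tested lay above 0. Those called were 6.67%, near the 7.8% of all genes. Of the 30 targets 24 lay above the median level of all genes. Of those 8.33% were called, against 14.6% of all genes at such levels, and with the replicate block 20.8% against 21.2%. Pmm1, a phosphomannomutase, rose from levels of 8.99, 8.86 and 8.84 to 9.41, 9.46 and 9.44, 0.54 on the log2 scale (adjusted p 0.0126 by limma). Ddit4, an mTORC1 inhibitor that p53 and other stresses induce, rose by 0.84 on the log2 scale, with an adjusted p of 0.0189. With the block 4 of these targets rose and 1 fell, 16.7% against 11.7% of all genes; the added ones were Polk, a DNA polymerase that copies past lesions (0.43, adjusted p 0.0447 by limma), Fbxw7, a ubiquitin ligase subunit (0.44, 0.0396), and Abhd4, a lipid hydrolase, which fell (-0.80, 0.00546).

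Of 24 measured p53 regulators and DNA damage kinases 1 rose and 1 fell, 8.33% of the list against 7.8% of all genes. Of the 17 above the median level of all genes 11.8% were called, against 14.6% of all genes at such levels. Atm, the kinase that signals DNA double-strand breaks to p53, had levels of 5.73, 5.45 and 6.27 against 5.09, 4.77 and 5.08. The groups did not overlap, and Atm rose by 0.84 (SE 0.20) on the log2 scale, with an adjusted p of 0.0454 by limma. Trp53bp2, which steers p53 towards apoptosis genes, fell by 0.52 on the log2 scale (adjusted p 0.0287). Of 33 further apoptosis genes 0 rose and 1 fell, 3.03% of the list against 7.8% of all genes. That gene was Bag3, a co-chaperone that protects cells from death, which fell by 0.56 on the log2 scale (adjusted p 0.0405 by limma). Of the 19 further apoptosis genes above the median level 5.26% were called, against 14.6% of all genes at such levels.

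With the replicate block 2 of the regulators rose, 1 fell and 12.5% were called, against 11.7% of all genes. The added one was Atr, the kinase that signals stalled replication, 0.44 higher on the log2 scale (adjusted p 0.0431 by limma). Of the 17 regulators above the median level of all genes 17.6% were called with the block, against 21.2% of all genes at such levels. Of the further apoptosis genes 0 rose and 3 fell with the block, 9.09% against 11.7% of all genes. Beside Bag3 these were Casp1, the caspase of inflammasomes, and Ngfr, the p75 neurotrophin receptor. Casp1 had levels of 3.86, 4.02 and 4.22 in the knockdown and 4.48, 5.38 and 5.82 in the control. The groups did not overlap, and the log2 difference of -1.19 had an adjusted p of 0.0501 by limma without the block and 0.0106 with it, on pair differences of -0.62, -1.36 and -1.60. Ngfr had levels of 4.81, 4.22 and 4.76 against 5.06, 5.29 and 5.63, also without overlap. Its log2 difference of -0.73 had an adjusted p of 0.0645 by limma without the block and 0.0359 with it. The mean levels of Casp1 and Ngfr lay below the median of all genes. Whether their signals lay above background was not tested.

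The calls of Pmm1, Ddit4, Atm, Trp53bp2 and Bag3 without the block depended on single arrays. Without control replicate 2 all 5 were lost (adjusted p from 0.0657 for Pmm1 to 0.170 for Atm), and so they were with a term for RNA integrity (0.0681 to 0.165). Pmm1 lost its call without knockdown replicates 2 (0.0600) and 3 (0.0519), and Ddit4 without knockdown replicates 1 (0.0544) and 2 (0.0833). Trp53bp2 lost its call without control replicate 1 (0.0623) and knockdown replicates 2 (0.0867) and 3 (0.0989). Atm lost its call without control replicates 1 (0.0680) and 3 (0.0777) and knockdown replicates 1 (0.0881) and 3 (0.0888). Bag3 lost its call without control replicate 3 (0.0758) and knockdown replicates 1 (0.111), 2 (0.0906) and 3 (0.125).

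**Figure D4:**
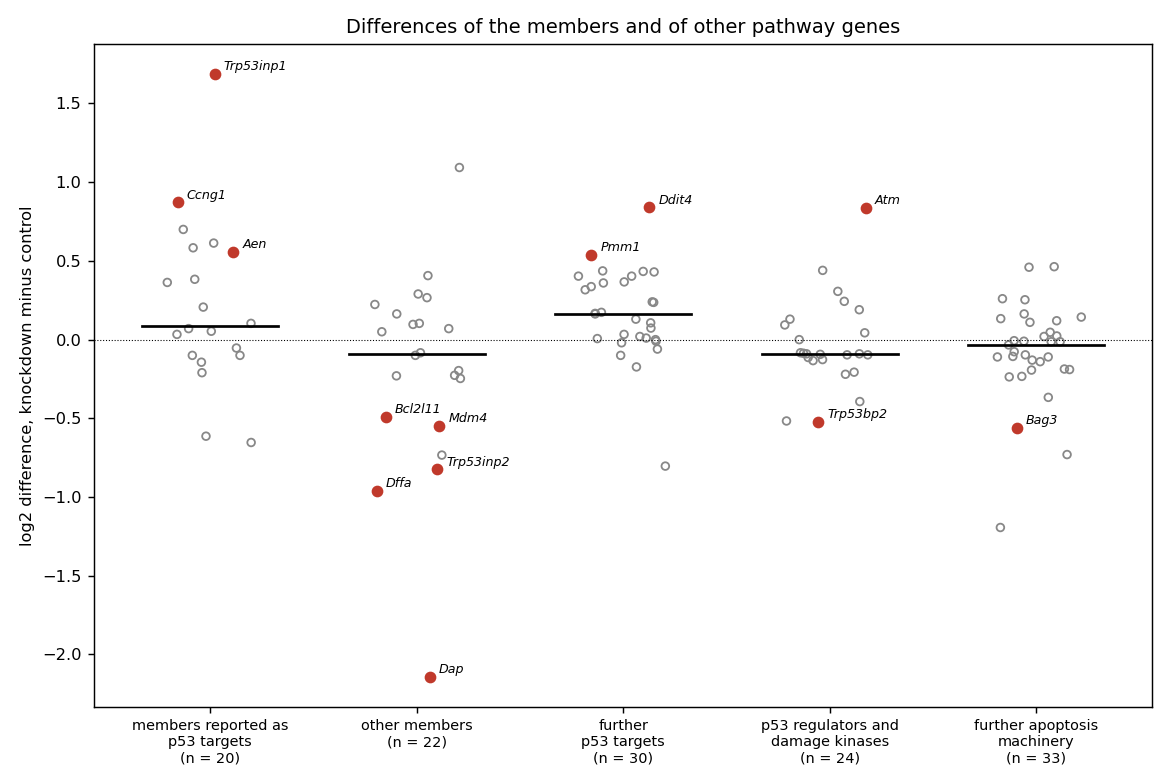
Log2 difference, knockdown minus control, of the members reported as p53 targets, the other members and 3 lists of other pathway genes; each circle is 1 gene, genes that passed the test are filled and named, and black bars are medians. Medians lie at 0.09, -0.09, 0.17, -0.09 and -0.03 from left to right, and Dap and Trp53inp1 stand furthest from 0.

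Markers of the cell types in the culture are given beside these results, since in bulk RNA fewer cells of a type and less RNA per cell cannot be told apart. Of 5 measured markers of dividing cells 3 rose, Mki67, Top2a and Cdk1, or 60% against 7.8% of all genes. Only 2 of the 5 lay above the median level of all genes, and 1 of these 2 was called. Whether the dimmer markers lay above background was not tested. The log2 of the 5 summed levels ran from 7.54 to 8.29 in the knockdown and from 6.96 to 7.57 in the control. These ranges overlapped. Of 7 inhibitory neuron markers 1, Lhx6, fell without the block. With it 4 fell, 57.1% against 21.2% of all genes above the median level, where all 7 lay. These were Lhx6 (adjusted p 0.00472 by limma), Dlx2 (0.0442), Sst (0.00806) and Npy (0.00767). All 7 had pair differences of one sign, against 44.9% of all genes, dim ones included. The sign was negative for 6 and positive for Gad1 (0.14, 0.11 and 0.09). The sums of the 7 were 11.66, 12.71 and 12.49 in knockdown replicates 1 to 3 and 12.32, 13.33 and 13.57 in the controls. The groups thus overlapped, while each knockdown sample lay below the control of its number. Sst was the brightest of the 7 in every array. Of 7 oligodendrocyte lineage markers 1, Pdgfra, rose, with sums from 9.48 to 10.64 and from 9.59 to 9.92. Of 9 pan-neuronal markers Dcx rose and Snap25 fell, and with the block Syt1 fell too (-0.58 on the log2 scale, adjusted p 0.0130 by limma). None of the 6 excitatory neuron, 7 astrocyte, 6 microglia, 5 endothelial and 5 fibroblast markers passed without the block. With it 1 astrocyte marker, Gja1 (log2 difference -0.59, adjusted p 0.0385 by limma), 1 microglia marker, Csf1r (-0.46, 0.0339), and 1 fibroblast marker, Lum (-0.74, 0.0442), fell, and none of the excitatory neuron and endothelial markers passed. The differences of Sst, Npy and Gja1 moved with single arrays, from -1.19 to -0.44, from -2.16 to -0.52 and from -0.80 to -0.38 when 1 array was left out. The part of these cell types in the members' changes was not tested.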

How the data were processed

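RNA of 6 samples was amplified, labelled and hybridised to Affymetrix arrays, per the labels' protocols. The submitters' processing notes name RMA and Affymetrix Expression Console (version 1.2.1.20), and the deposited values are on the log2 scale. RMA gives all arrays 1 distribution, which hides any shift common to most genes, and compresses weak signals. Detection calls and probe-level signals were not used here. Of 41345 probe sets 23521 had 1 gene symbol, 1814 several and 16010 none.

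Knockdown minus control was fitted with limma 3.58.1 in R 4.3.3 (lmFit, eBayes without trend), with Benjamini-Hochberg adjustment over 22180 genes. Folds are powers of 2 of the difference. The procedure was tested on simulated data. The members and lists were chosen with earlier results of these data known. Every member is named, with values in every array for those called in either fit, for the smallest p in each role and for Cdkn1a, Mdm2, Bbc3, Bcl2, Mcl1, Apaf1 and Casp9; of the other lists, called genes are named. Roles and p53 targets follow textbook function.

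Deviations from the group means of samples with 1 number correlated at 0.427, 0.121 and 0.374, and of samples with different numbers at -0.378 to 0.0568. All 3 exceeded 0.1, so same-numbered samples were treated as pairs, on the evidence of the data alone. Promoter sequences are RefSeq's (GRCm38.p6). Results were recomputed with the replicate block, without each array and with other normalizations, variance settings, filters, array weights, RNA integrity as a term and probe set averaging. Figures used matplotlib 3.10.9.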

Additional observations from a re-analysis of the deposited data

How the results depend on the processing

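Quantile normalization, median centring and robust fitting lost none of the 8 calls of members and turned the sign of no member. The members called higher and lower (3 and 5) became 9 and 8 with the replicate block. Members called higher numbered 7 with array weights, 5 with the filter on dim genes, 1 at an adjusted p under 0.01 and 6 under 0.1. Members called lower numbered 3 under 0.01 and 3 with a term for RNA integrity. Without 1 array, 1 to 4 members were called higher and 3 to 6 lower. Over all genes 402 were higher and 356 lower with the RNA integrity term, 1401 and 1302 with array weights, and 354 and 290 under 0.01; 1252 were lower with the replicate block and 1238 under 0.1. Without 1 array, 383 to 800 were higher and 306 to 687 lower. Other pathway genes called higher and lower (3 and 2) became 6 and 5 with the block, 5 and 7 with array weights, 0 and 0 with the RNA integrity term and 0 and 0 under 0.01. Those lower were 5 with the filter on dim genes, 5 with an intensity trend, 4 with median centring and 7 under 0.1. Without 1 array, 0 to 3 were higher and 0 to 4 lower. Some differences near 0, none of them called, changed sign when 1 array was left out: they ran from -0.195 to 0.015 for Btg1, -0.4367 to 0.0033 for Sesn2, -0.4183 to 0.0617 for Sesn3, -0.225 to 0.1767 for Perp, -0.3117 to 0.0483 for Fas, -0.0183 to 0.1367 for Eda2r, -0.03 to 0.13 for Bad, -0.035 to 0.195 for Apaf1 and -0.01 to 0.15 for Casp9. With the RNA integrity term Perp had 0.0576, Fas 0.0636 and Bad -0.0053, with array weights Perp 0.0693 and Bad -0.0212, and with probe sets averaged Mcl1 -0.0367. The cause of these changes was not tested. The block changed no other call of a member.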
